A study of Mus musculus with 6 samples.

Results

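Smooth muscle contraction and excitation genes of the mouse colon were examined as a group of 34 named genes, among 24517 genes listed in the deposited count tables. The rule lists them by name for their roles and uses no measured values, though the list was chosen with earlier results of these data known. They encode contractile proteins, muscle transcription factors, ion channels, calcium handling proteins and muscarinic receptors. All 34 were present in the tables, and all 34 passed the filter on low counts that left 16347 genes for testing. The smallest count of any of them in any library was 72.

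The muscle coat of the colon shortens when calcium enters the smooth muscle cell through voltage-gated channels and is released from its internal store. Calcium with calmodulin then activates myosin light chain kinase, which phosphorylates the regulatory light chain of smooth muscle myosin and lets it pull on actin. Myosin phosphatase reverses the step, acetylcholine acting at muscarinic receptors starts it, and nitric oxide acting through cyclic GMP relaxes the cell. Serum response factor with its partner myocardin binds the CArG box in the control regions of many of these genes.

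RNA from colon was sequenced for 3 control libraries, labelled NSD2fl/fl, and 3 intestine-specific knockout libraries, labelled NSD2∆IE. NSD2 is an enzyme that dimethylates histone H3 at lysine 36. Both groups carried the floxed Nsd2 gene on a C57BL/6J background. Per the study's methods the deletion came from a Villin-Cre transgene, which is active in intestinal epithelium and not in smooth muscle. All mice were given a high-fat, high-cholesterol diet, for 16 weeks per the labels and for a longer period per the methods, which describe male littermates that began the diet as young adults. The ages at collection are not given for single libraries. The labels do not say that each library is from a separate mouse, so p-values measure the spread between these libraries.

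The libraries held 38041832 to 38604680 counts, and 20334 to 21312 genes had at least 1 count. The targeted gene Nsd2 had 1840, 2091 and 2455 counts in NSD2fl/fl and 972, 914 and 1139 in NSD2∆IE, a log2 fold change of -1.23 (SE 0.159, unadjusted p = 0.000133). The methods describe male mice, yet Xist, the RNA of the inactive X chromosome, had 4, 0 and 3 counts in NSD2fl/fl and 24234, 21217 and 23403 in NSD2∆IE, and the Y-linked Ddx3y had 1398, 945 and 1416 counts in NSD2fl/fl and 0, 0 and 0 in NSD2∆IE. These counts are those of male tissue in NSD2fl/fl and of female tissue in NSD2∆IE. The genotype cannot be told apart from this difference in sex for any of the 34 genes, of which Flna and Dmd lie on the X chromosome. Separately, the first principal component, computed without the muscle genes, took 51.4% of the variance and placed NSD2fl/fl replicates 1 and 3 with NSD2∆IE replicate 1 on one side and NSD2fl/fl replicate 2 with NSD2∆IE replicates 2 and 3 on the other. Summed CPM (counts scaled to a common library size with TMM factors) of 5 posterior Hox genes, which mark the distal end of the colon, divided the libraries the same way, at 408, 5.17 and 395 in NSD2fl/fl and 340.4, 11.4 and 39.5 in NSD2∆IE.

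The smooth muscle genes were higher in NSD2∆IE colon. Together they took 0.788, 0.326 and 0.719% of all counts in NSD2fl/fl and 0.970, 1.29 and 2.03% in NSD2∆IE, in order of replicate. Their summed level was 7782, 3534 and 7687 CPM in NSD2fl/fl and 9429, 12599 and 18817 CPM in NSD2∆IE. All 3 NSD2∆IE sums lay above all 3 NSD2fl/fl sums, with NSD2fl/fl replicate 2 far below the other 2 controls and NSD2∆IE replicate 3 the highest of the 6. In bulk tissue, more muscle cells in a piece of colon and more RNA per muscle cell cannot be told apart.

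Gene by gene, the fitted log2 fold change of NSD2∆IE over NSD2fl/fl was above 0 for 34 of 34 genes. It ranged from 0.06 for Vcl to 2.71 for Pln, with a median of 1.03 beside -0.04 over all genes tested. At the study's own threshold, which asks for an unadjusted p below 0.05 and a log2 fold change beyond 0.322, 25 of 34 genes were higher and 0 were lower in edgeR's quasi-likelihood test. Of all genes tested, 8.05% were higher and 2.21% lower at that threshold. In 23 of the 34 genes every NSD2∆IE value lay above every NSD2fl/fl value, compared with 11.4% of all genes, and 0 had the opposite order, compared with 7.28%. None of the 34 reached an adjusted p under 0.05 in edgeR, where 25 had an unadjusted p under 0.05. Their Benjamini-Hochberg adjusted p ran from 0.302 to 0.860, and 0.0306% of all genes passed. DESeq2 called 8 of the 34 higher at an adjusted p under 0.05, against 2.59% of the genes for which it gave one, and 0 lower, against 0.318%. The 8 were Pln, Mylk, Lmod1, Jph2, Myh11, Cald1, Hspb6 and Myl9.

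Single libraries carried much of the count. Without NSD2∆IE replicate 3, 6 of 34 genes were past the study's threshold (4.06% of all genes), and without NSD2∆IE replicate 2, 15 were (4.85% of all genes). Leaving out NSD2fl/fl replicate 1, 2 or 3 left 21, 19 and 20 (10.3%, 9.3% and 5.55% of all genes), and leaving out NSD2∆IE replicate 1 left 24 (7.79%). The 6 genes that passed in all 16 alternatives to the processing were Mylk, Cald1, Lmod1, Hspb6, Jph2 and Pln. In 31 of the 34 genes the lowest of the 6 values belonged to NSD2fl/fl replicate 2, and in 30 the highest belonged to NSD2∆IE replicate 3.

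**Figure D1:**
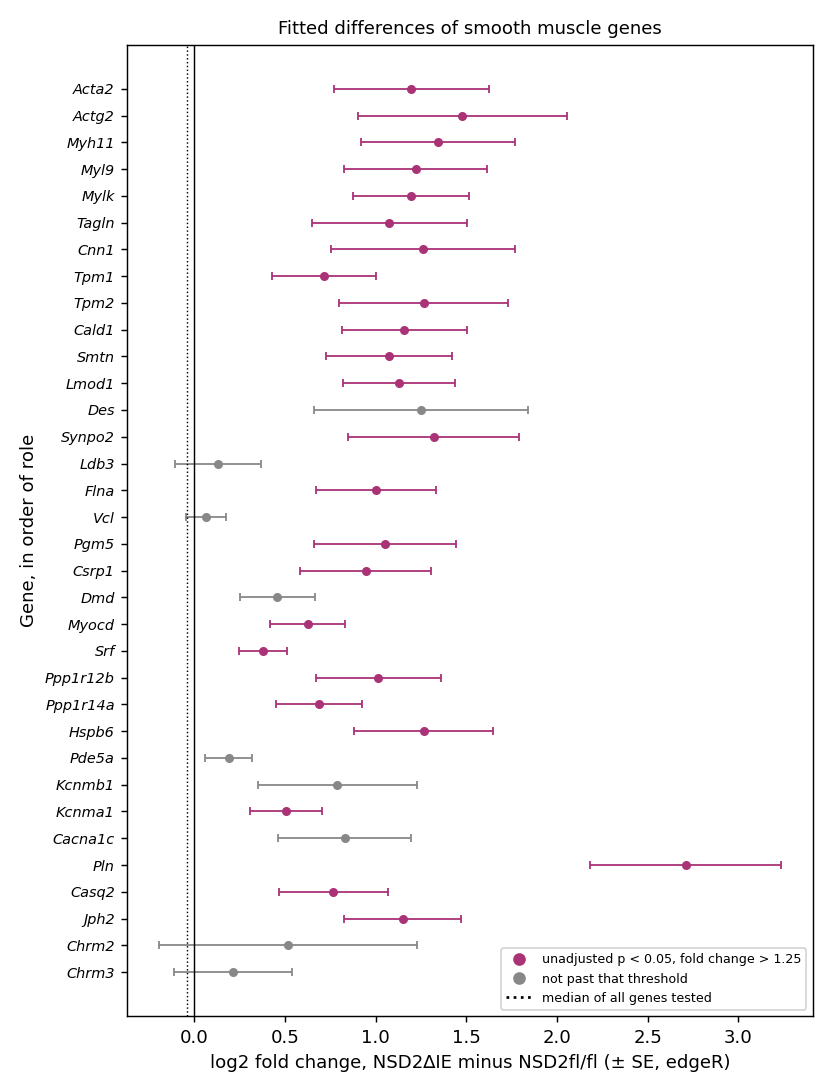
Fitted log2 fold changes, NSD2∆IE minus NSD2fl/fl, of the 34 smooth muscle genes in order of role, with bars of 1 standard error from edgeR (3 libraries per group). Coloured points are the 25 genes past the study's threshold, grey points the other 9, and the dotted line is the median of all genes tested, -0.04. All 34 points lie to the right of 0, Pln farthest at 2.71.

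**Figure D2:**
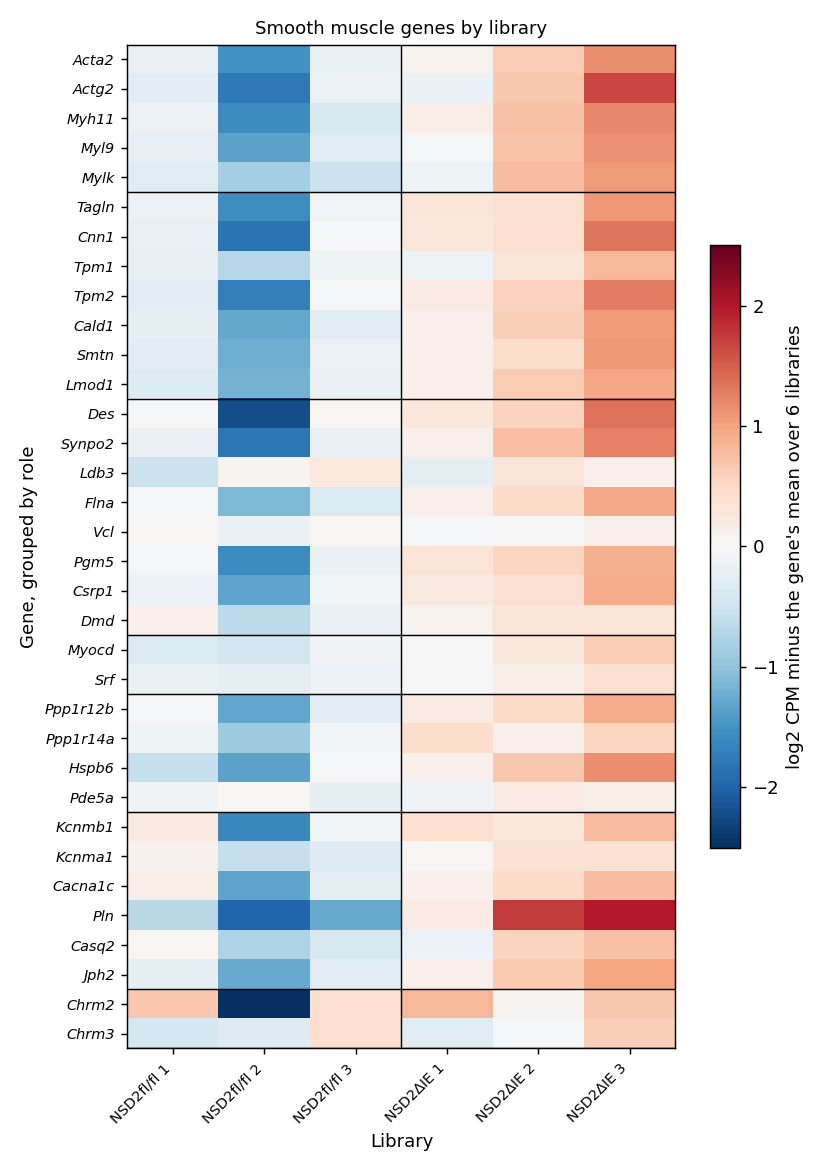
Level of each of the 34 genes in each of the 6 libraries as log2 CPM minus the gene's mean over the libraries, ordered by role. The column of NSD2fl/fl replicate 2 is the lowest for 31 genes and that of NSD2∆IE replicate 3 the highest for 30.

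The transcripts of the transcription factors differed by less than most of the other genes, with a median log2 fold change of 0.50. Srf, serum response factor (chr17:46548329-46556175, minus strand; GRCm38, GENCODE M21, as for all gene positions here), was at 56.4, 54.5 and 57.2 CPM in NSD2fl/fl and 63.1, 70.5 and 85.0 CPM in NSD2∆IE. The narrow control values lay below all 3 NSD2∆IE values, and the log2 fold change was 0.38 (SE 0.130, unadjusted p = 0.0233). Myocd, which encodes the coactivator myocardin (chr11:65176561-65269989, minus strand), was at 9.40, 8.70 and 11.3 CPM in NSD2fl/fl and 12.0, 14.5 and 18.8 CPM in NSD2∆IE, a log2 fold change of 0.63 (SE 0.207, unadjusted p = 0.0202). Its groups did not overlap either. Both passed the study's threshold, and neither did without NSD2∆IE replicate 3 or without NSD2fl/fl replicate 2. Without NSD2fl/fl replicate 1, Srf did. Per gene length, Myocd was the scarcer, at 1.12 FPKM (reads per unit of gene length and depth) in NSD2fl/fl and 1.8998 FPKM in NSD2∆IE, beside 8.18 and 11.6 FPKM for Srf.

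The promoters of these genes were read for the CArG box, the sequence that serum response factor binds, in RefSeq windows from 250 bases before to 50 bases after each annotated start (GRCm38.p6). Windows were found for 30 of the 34 genes, and Actg2, Myh11, Tagln and Myocd had none in the table. A CArG box (CC, 6 bases of A or T, GG, which reads alike on both strands in this pattern) stood in the windows of Srf, Myl9, Vcl, Ldb3 and Dmd, 5 of 30 genes or 16.7%, and in 1.81% of all 27025 genes of the table. With at most 1 G or C allowed among the 6 inner bases, 9 of 30 genes held a match, with Acta2, Hspb6, Jph2 and Cacna1c added, beside 11.3% of all genes. A match is a description of the letters in this window. The stretches below are shown because the CArG box is the best known control element of these genes. Capitals mark the motif, and each stretch is written 5′ to 3′ on the strand of its gene. The Srf match in capitals begins 62 bases before the start, and a further match stands in lower case before it. The Acta2 match holds 1 C among its inner bases.
Srf (chr17:46556185-46556254, minus strand): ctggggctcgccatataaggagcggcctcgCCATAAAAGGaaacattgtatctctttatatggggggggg
Myl9 (chr2:156775273-156775342, plus strand): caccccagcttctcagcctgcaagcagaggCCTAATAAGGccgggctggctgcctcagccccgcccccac
Vcl (chr14:20929148-20929210, plus strand): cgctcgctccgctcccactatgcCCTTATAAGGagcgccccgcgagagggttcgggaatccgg
Ldb3 (chr14:34588682-34588746, minus strand): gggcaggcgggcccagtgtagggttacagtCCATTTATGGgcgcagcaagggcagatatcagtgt
Dmd (chrX:82948742-82948811, plus strand): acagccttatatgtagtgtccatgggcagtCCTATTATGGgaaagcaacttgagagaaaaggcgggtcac
Acta2 (chr19:34255418-34255487, minus strand): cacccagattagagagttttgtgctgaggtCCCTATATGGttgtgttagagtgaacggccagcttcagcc
Jph2 (chr2:163398027-163398096, minus strand): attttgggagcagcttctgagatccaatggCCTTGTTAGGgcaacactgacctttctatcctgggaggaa

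Genes with the box varied widely in the difference between the groups. Of the 5 genes with the strict motif, Myl9 and Srf passed the study's threshold, with log2 fold changes of 1.22 and 0.38. Dmd, Ldb3 and Vcl did not, at 0.46, 0.13 and 0.06. Of the genes added when 1 G or C was allowed, Acta2, Hspb6 and Jph2 passed, at 1.20, 1.27 and 1.15. Cacna1c did not, at 0.83.

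The transcripts of the filament proteins that generate force and of their kinase were all higher past the threshold, 5 of 5, with a median log2 fold change of 1.22. Acta2, smooth muscle alpha actin (chr19:34241090-34255590, minus strand), was at 778, 309.6 and 783 CPM in NSD2fl/fl and 940.1, 1377 and 1970.3 CPM in NSD2∆IE. The 2 groups did not overlap, and the log2 fold change was 1.20 (SE 0.427, unadjusted p = 0.0272). Myh11, the smooth muscle myosin heavy chain (chr16:14194535-14291372, minus strand), was at 808, 301 and 686 CPM in NSD2fl/fl and 1006, 1477 and 2068 CPM in NSD2∆IE, a log2 fold change of 1.34 (SE 0.425, unadjusted p = 0.0166). Every NSD2∆IE value was again above every control value. Myl9, the regulatory light chain that the kinase phosphorylates, was at 401, 183 and 376 CPM in NSD2fl/fl and 455, 761 and 1019.8 CPM in NSD2∆IE, a log2 fold change of 1.22 (SE 0.393, unadjusted p = 0.0179). Mylk, the kinase itself (chr16:34745210-35002420, plus strand), was at 350.1, 237 and 294 CPM in NSD2fl/fl and 391, 735 and 892 CPM in NSD2∆IE. Its log2 fold change of 1.20 (SE 0.320, unadjusted p = 0.00770) had the smallest p of the 5, and it was the only one of them past the threshold without NSD2∆IE replicate 3. Without NSD2∆IE replicate 2, Myh11, Myl9 and Mylk were.

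Actg2, enteric smooth muscle gamma actin (chr6:83512905-83536265, minus strand), was at 470.4, 164 and 511 CPM in NSD2fl/fl and 504, 898 and 1790.1 CPM in NSD2∆IE. NSD2∆IE replicate 1 lay between the controls, so the groups overlapped, and the log2 fold change was 1.48 (SE 0.577, unadjusted p = 0.0385). It passed in 10 of the 16 alternatives, and of those that left out a library only in the one without NSD2∆IE replicate 1. Without NSD2∆IE replicate 3 the estimate was 0.88.

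Transcripts of the 7 proteins that bind or cap the thin filament were also all higher past the threshold, with a median log2 fold change of 1.13. Tagln, transgelin or SM22 alpha, had the highest mean level of the 34 genes per gene length, at 406 ± 196 FPKM in NSD2fl/fl and 932 ± 322 FPKM in NSD2∆IE (SD, 3 libraries each). In CPM it was at 824, 308 and 868 CPM in NSD2fl/fl and 1123, 1181 and 1913 CPM in NSD2∆IE, a log2 fold change of 1.08 (SE 0.426, unadjusted p = 0.0404). Its groups did not overlap. The annotation places Pcsk7 and Gm48529 over 67.9% of its exonic bases (chr9:45929619-45936058, minus strand), and use of strand in the counting is not given in the sources used here, so reads of Tagln and these genes may not be fully apart. The log2 fold change of Pcsk7 was -0.04.

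Cnn1, calponin, which binds actin and slows the myosin ATPase, was at 450.3, 142 and 495 CPM in NSD2fl/fl and 624, 687 and 1295 CPM in NSD2∆IE, a log2 fold change of 1.26 (SE 0.507, unadjusted p = 0.0428). Caldesmon, encoded by Cald1, also restrains the actin and myosin interaction. It was at 117, 56.4 and 114 CPM in NSD2fl/fl and 149, 206 and 287 CPM in NSD2∆IE, a log2 fold change of 1.16 (SE 0.345, unadjusted p = 0.0127). Lmod1, leiomodin, which nucleates actin filaments, was at 40.5, 22.5 and 44.98 CPM in NSD2fl/fl and 56.3, 79.9 and 100.4 CPM in NSD2∆IE, a log2 fold change of 1.13 (SE 0.309, unadjusted p = 0.00854). In these 3 genes the groups did not overlap. Cald1 and Lmod1 were the only thin filament genes past the threshold without NSD2∆IE replicate 3, and without NSD2fl/fl replicate 1 they passed with Smtn. Without NSD2∆IE replicate 2, Cald1, Lmod1, Smtn and Tpm2 passed. Smtn, smoothelin, a marker of contractile smooth muscle, had a log2 fold change of 1.07 (SE 0.347, unadjusted p = 0.0181), with 16.3% of its exonic bases under other annotated genes.

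The genes of the tropomyosins, which lie along the actin filament, differed in the size of their change. Tpm2 had a log2 fold change of 1.27 (SE 0.465, unadjusted p = 0.0307), from 205 ± 102 CPM in NSD2fl/fl and 493 ± 193 CPM in NSD2∆IE, and its groups did not overlap. Tpm1 had a log2 fold change of 0.71 (SE 0.287, unadjusted p = 0.0428), from 582 ± 120.5 CPM in NSD2fl/fl and 954 ± 317 CPM in NSD2∆IE. Its NSD2∆IE replicate 1, at 664 CPM, lay below NSD2fl/fl replicate 3 at 673 CPM, and of the fits that left out 1 library it passed only in the one without NSD2∆IE replicate 1. Without NSD2∆IE replicate 3 the estimate was 0.43.

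**Figure D3:**
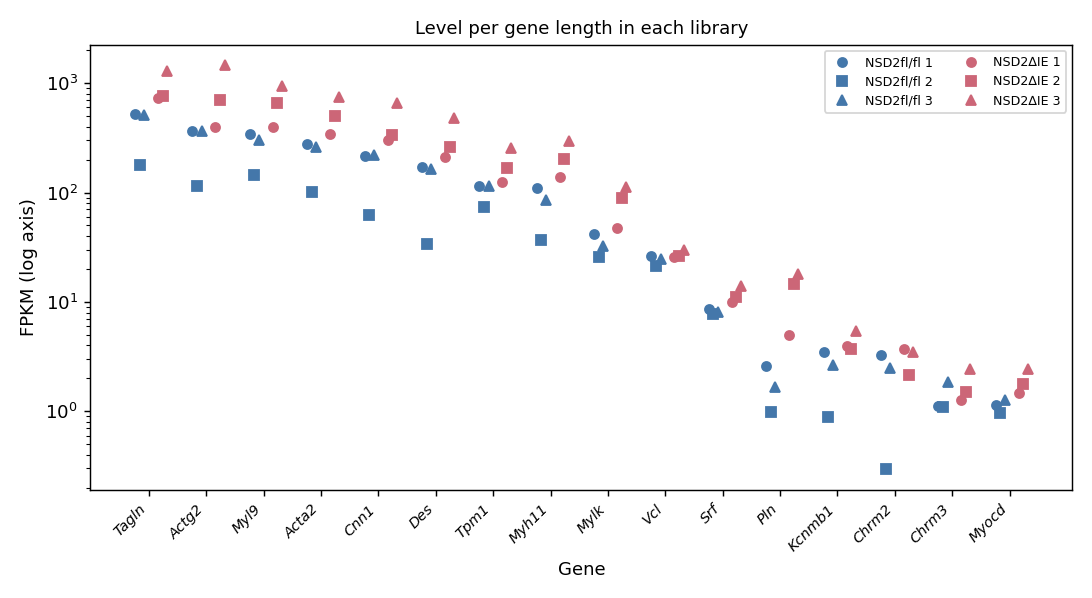
FPKM of 16 of the smooth muscle genes in each library on a log axis, ordered by level, with NSD2fl/fl in blue and NSD2∆IE in red. Contractile genes such as Tagln and Actg2 lie at the top, Vcl stays within a narrow band in all 6 libraries, and Myocd and Chrm3 lie near 1 to 2 FPKM.

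The genes of the cytoskeleton and of attachment were divided, with 4 of 8 higher past the threshold. Synpo2, synaptopodin 2, an actin-bundling protein of the dense bodies, was at 84.7, 27.3 and 84.5 CPM in NSD2fl/fl and 104, 160.0 and 226 CPM in NSD2∆IE, a log2 fold change of 1.32 (SE 0.472, unadjusted p = 0.0275). Flna, filamin A, which crosslinks actin and is encoded on the X chromosome (chrX:74223461-74249820, minus strand), was at 645, 306 and 522 CPM in NSD2fl/fl and 731, 933 and 1288 CPM in NSD2∆IE, a log2 fold change of 1.003 (SE 0.329, unadjusted p = 0.0194). Both had groups that did not overlap, as did Pgm5 with a log2 fold change of 1.05 (SE 0.394, unadjusted p = 0.0327) and Csrp1 with 0.95 (SE 0.363, unadjusted p = 0.0360). Pgm5 encodes aciculin, a phosphoglucomutase relative found at attachment plaques, and Csrp1 a LIM protein of the actin cytoskeleton. None of the 4 passed without NSD2∆IE replicate 3, without NSD2∆IE replicate 2 only Flna did, and without NSD2fl/fl replicate 3 Pgm5 did not. The estimate for Pgm5 was 0.70 without NSD2fl/fl replicate 2.

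Des, desmin, the muscle intermediate filament (chr1:75360329-75368579, plus strand), was at 514, 113 and 541 CPM in NSD2fl/fl and 635, 785 and 1358 CPM in NSD2∆IE. The groups did not overlap, yet the control values ran from 113 to 541 CPM, and the log2 fold change of 1.249 (SE 0.591, unadjusted p = 0.0735) was not past the threshold. Without NSD2fl/fl replicate 2 the estimate was 0.81. Vcl, vinculin, which links actin to integrins (chr14:20929398-21033676, plus strand), was at 143, 126 and 145 CPM in NSD2fl/fl and 138, 142 and 153 CPM in NSD2∆IE. These values overlapped, and the log2 fold change was 0.06 (SE 0.110, unadjusted p = 0.587), or 0.00169 without NSD2fl/fl replicate 2. Ap3m1 is annotated over 25.5% of the exonic bases of Vcl, and its log2 fold change was -0.05.

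Dmd, dystrophin, on the X chromosome (chrX:82948870-85206141, plus strand), was at 24.7, 14.4 and 19.9 CPM in NSD2fl/fl and 24.1, 28.6 and 28.5 CPM in NSD2∆IE, a log2 fold change of 0.46 (SE 0.207, unadjusted p = 0.0637). NSD2∆IE replicate 1 lay below NSD2fl/fl replicate 1, so its groups overlapped, though it passed the threshold without NSD2fl/fl replicate 1. Without NSD2fl/fl replicate 2 the estimate was 0.27. Ldb3, a PDZ and LIM domain protein best known from the Z-disc of striated muscle, was at 14.6, 22.1 and 25.2 CPM in NSD2fl/fl and 18.1, 26.7 and 23.0 CPM in NSD2∆IE, a log2 fold change of 0.13 (SE 0.238, unadjusted p = 0.604). Its sign turned to -0.07 without NSD2fl/fl replicate 1, and its control values alone ran from 14.6 to 25.2 CPM.

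Of the 4 genes of phosphatase and cyclic nucleotide control, 3 were higher past the threshold. Ppp1r12b, a targeting subunit of myosin phosphatase, was at 120.0, 50.1 and 102 CPM in NSD2fl/fl and 142, 172 and 236 CPM in NSD2∆IE, a log2 fold change of 1.02 (SE 0.343, unadjusted p = 0.0220). Ppp1r14a, which encodes CPI-17, the inhibitor of that phosphatase, was at 25.8, 15.3 and 27.1 CPM in NSD2fl/fl and 38.1, 30.8 and 41.0 CPM in NSD2∆IE, a log2 fold change of 0.69 (SE 0.237, unadjusted p = 0.0238). Hspb6, the small heat shock protein HSP20, a target of cyclic nucleotide-dependent kinases in relaxing muscle, was at 11.7, 6.87 and 16.9 CPM in NSD2fl/fl and 18.9, 27.6 and 38.9 CPM in NSD2∆IE, a log2 fold change of 1.27 (SE 0.383, unadjusted p = 0.0136). In all 3 the groups did not overlap, and only Hspb6 passed without NSD2∆IE replicate 3. Ppp1r14a did not pass without NSD2∆IE replicate 1. Pde5a, the phosphodiesterase that breaks down cyclic GMP (chr3:122728947-122859374, plus strand), was at 131, 142 and 119 CPM in NSD2fl/fl and 131, 161 and 155 CPM in NSD2∆IE. Its groups overlapped and its log2 fold change was 0.19 (SE 0.128, unadjusted p = 0.184).

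Among channels and calcium handling genes, 4 of 6 were higher past the threshold, and phospholamban showed the largest fold change of the 34 genes. Pln encodes the inhibitor of the calcium pump of the sarcoplasmic reticulum (chr10:53337667-53345987, plus strand). It had 247, 94 and 156 counts in NSD2fl/fl and 477, 1390 and 1707 in NSD2∆IE, which is 6.41, 2.66 and 4.38 CPM in NSD2fl/fl and 12.0, 35.1 and 41.1 CPM in NSD2∆IE. Every NSD2∆IE value was above every control value, with NSD2∆IE replicates 2 and 3 about alike and replicate 1 well below them. The mean was 4.48 ± 1.88 CPM in NSD2fl/fl and 29.4 ± 15.4 CPM in NSD2∆IE (SD, n = 3 per group), a fold change of 6.55. Its log2 fold change of 2.71 (SE 0.527, unadjusted p = 0.00145) had an edgeR adjusted p of 0.302, and across 16 alternatives the adjusted p ran from 2.52e-05 (DESeq2) to 0.990. The log2 fold change itself stayed between 2.18 and 3.09. Cep85l and Gm47644 are annotated over 64.7% of the exonic bases of Pln. Cep85l was at 3.56, 3.11 and 3.15 CPM in NSD2fl/fl and 4.57, 4.87 and 3.98 CPM in NSD2∆IE, a log2 fold change of 0.45 (SE 0.197, unadjusted p = 0.0573), a far smaller difference.

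Jph2, junctophilin 2, which holds the plasma membrane close to the calcium store (chr2:163336242-163397993, minus strand), was at 28.3, 14.1 and 28.2 CPM in NSD2fl/fl and 36.9, 53.5 and 66.5 CPM in NSD2∆IE, a log2 fold change of 1.15 (SE 0.324, unadjusted p = 0.00990). The groups did not overlap. Casq2, calsequestrin 2, which binds calcium inside the store, was at 10.1, 5.68 and 7.39 CPM in NSD2fl/fl and 8.80, 14.4 and 16.1 CPM in NSD2∆IE, a log2 fold change of 0.77 (SE 0.301, unadjusted p = 0.0393). Here NSD2∆IE replicate 1 lay below NSD2fl/fl replicate 1. Without NSD2fl/fl replicate 2 or 3, or NSD2∆IE replicate 2 or 3, only Pln and Jph2 of these 6 genes were past the threshold.

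Cacna1c, the pore of the L-type calcium channel (chr6:118587240-119196418, minus strand), was at 20.1, 7.32 and 15.6 CPM in NSD2fl/fl and 19.9, 25.5 and 31.1 CPM in NSD2∆IE, a log2 fold change of 0.83 (SE 0.366, unadjusted p = 0.0587). Its groups overlapped by NSD2∆IE replicate 1, and the estimate was 0.51 without NSD2fl/fl replicate 2 and 1.15, past the threshold, without NSD2fl/fl replicate 1. Kcnma1, the pore of the large-conductance potassium channel that opens with calcium, was at 46.1, 28.6 and 33.9 CPM in NSD2fl/fl and 43.6, 54.9 and 55.7 CPM in NSD2∆IE, a log2 fold change of 0.50 (SE 0.199, unadjusted p = 0.0396). Kcnmb1, the smooth muscle beta subunit of that channel, was at 14.7, 4.07 and 12.0 CPM in NSD2fl/fl and 16.4, 15.2 and 21.5 CPM in NSD2∆IE. NSD2fl/fl replicate 2 was lower than the other controls by a wide margin, the groups did not overlap, and the log2 fold change of 0.79 (SE 0.439, unadjusted p = 0.116) did not pass and was 0.41 without that library.

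The muscarinic receptor genes were not past the threshold, 0 of 2. Chrm2, the more abundant of the pair in muscle (chr6:36388084-36528414, plus strand), had 790, 72 and 606 counts in NSD2fl/fl and 909, 529 and 845 in NSD2∆IE, which is 20.5, 2.03 and 17.0 CPM in NSD2fl/fl and 22.9, 13.3 and 20.4 CPM in NSD2∆IE. NSD2fl/fl replicate 2 was the only library under 10 CPM, and the log2 fold change of 0.52 (SE 0.714, unadjusted p = 0.493) became 0.00629 without it and 0.98 without NSD2fl/fl replicate 1. With the side of the first principal component as a covariate Chrm2 was at 1.56 and past the threshold, in that 1 of the 16 alternatives only. Chrm3, the receptor that couples to calcium release (chr13:9875486-10360847, minus strand), was at 5.04, 5.48 and 9.13 CPM in NSD2fl/fl and 5.70, 6.71 and 10.4 CPM in NSD2∆IE. The groups overlapped, with a log2 fold change of 0.21 (SE 0.325, unadjusted p = 0.533), and the sign turned to -0.0765 without NSD2∆IE replicate 3 and the value was 0.53 without NSD2fl/fl replicate 3.

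The 34 genes were next compared with each other inside each library, as log2 CPM of a gene minus the mean log2 CPM of the other 33, which does not depend on how libraries are scaled. Flna, Smtn, Csrp1 and Ppp1r12b kept the steadiest place, with standard deviations over the 6 libraries of 0.102 to 0.105 on this scale, and Pln varied the most, with 1.02. Pln was at -3.88, -4.13 and -4.43 in NSD2fl/fl and -3.21, -1.998 and -2.19 in NSD2∆IE, a difference of 1.68 between group means. Myh11, Cald1, Lmod1, Synpo2, Pln and Jph2 lay higher in every NSD2∆IE library than in any control on this scale. Tpm1, Vcl, Dmd, Srf, Pde5a and Chrm3 lay lower in every NSD2∆IE library. Their own fitted log2 fold changes were all above 0. Lower on this scale therefore means a smaller rise than the mean of the other 33 genes. Groups without overlap have an exact two-sided permutation p of 0.1, the smallest that 3 libraries against 3 allow. These 12 genes were named for that lack of overlap, so their p follows from the choice. Adjusted over the 34 genes it was 0.283. At a rate of 0.1 a few of 34 genes would separate without any difference between the groups. Each gene is set against the others, so the 2 directions are tied together.

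**Figure D4:**
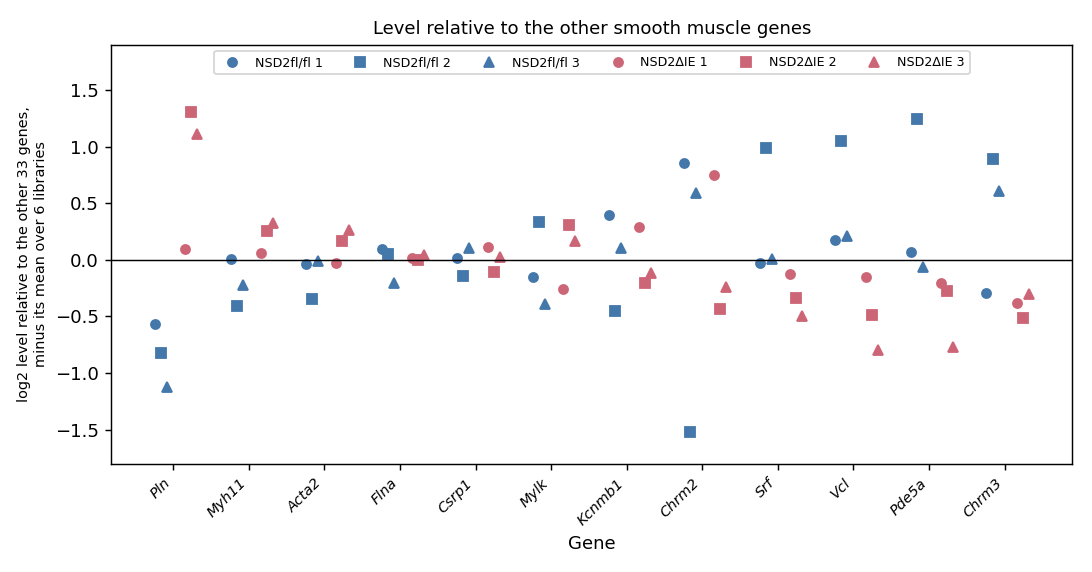
Level of selected genes relative to the other 33 smooth muscle genes in each library (log2 CPM minus the mean log2 CPM of the others), centred on the gene's mean, with one point per library. Pln lies above its mean in the NSD2∆IE libraries, while Vcl and Pde5a are highest in NSD2fl/fl replicate 2.

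Ratios of paired genes were taken from FPKM with 0.1 added, 7 in all. Desmin to vinculin was 6.42, 1.60 and 6.67 in NSD2fl/fl and 8.22, 9.89 and 15.8 in NSD2∆IE. All 3 NSD2∆IE ratios were above all controls, and the exact permutation test gave p = 0.1 (0.35 after adjustment over the 7 ratios). Tpm2 to Tpm1 was 0.639, 0.332 and 0.691 in NSD2fl/fl and 0.833, 0.790 and 0.902 in NSD2∆IE, also without overlap and with the same p. The actins Actg2 to Acta2 were at 1.30, 1.14 and 1.41 in NSD2fl/fl and 1.16, 1.41 and 1.96 in NSD2∆IE, and their groups overlapped (exact p = 0.5). Myocd to Srf was 0.141, 0.137 and 0.165 in NSD2fl/fl and 0.158, 0.169 and 0.179 in NSD2∆IE, with an exact p of 0.2. Of the remaining 3, Kcnmb1 to Kcnma1 and Chrm2 to Chrm3 had an exact p of 0.5 each. Ppp1r14a to Ppp1r12b, the inhibitor over its phosphatase subunit, was 1.77, 2.49 and 2.19 in NSD2fl/fl and 2.21, 1.48 and 1.44 in NSD2∆IE, with an exact p of 0.3.

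The 2 sides of the first principal component were compared as well, without a test, since each side holds 1 library of one group. Between NSD2fl/fl replicates 1 and 3 and NSD2∆IE replicate 1 the median log2 difference over the 34 genes was 0.30, and 31 of 34 were above 0. Between NSD2fl/fl replicate 2 and NSD2∆IE replicates 2 and 3 it was 1.998, with 34 of 34 above 0. The only control on that side is the library with the lowest value in 31 of the 34 genes. These differences were not computed over all genes, so no background stands beside them. For Acta2 the values were 0.27 and 2.41, for Des 0.27 and 3.19, and for Pln 1.18 and 3.84. Relative to the other 33 genes, Kcnmb1 and Chrm2 were lower, and Mylk was higher, in every library on the side with few posterior Hox counts. Chrm2 was at -2.15, -4.52 and -2.41 in NSD2fl/fl and -2.25, -3.43 and -3.24 in NSD2∆IE on this scale. A full split of 3 libraries from 3 has an exact two-sided permutation p of 0.1. At that rate a few of 34 genes would split without any difference between the sides. The part of this split in the differences between the groups was not tested beyond these values and the fit with the side as a covariate, which called 26 of 34 genes and 8.98% of all genes higher.

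Other genes of the contraction pathway were divided. Of 76 named companions of the 34 genes, 73 were tested, and Barx1, Tbx18 and Prrx1 were too low. Of these, 29 were higher and 1 was lower past the threshold, with a median log2 fold change of 0.46. Without NSD2∆IE replicate 3, 18 were higher, beside 4.06% of all genes. In the lists that follow, higher and lower mean past this threshold. For these lists and for the companions together, the shares over all genes tested were 8.05% higher and 2.21% lower.

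Among receptors, 2 of 10 were higher. Tacr2, the neurokinin receptor through which tachykinins contract the gut, had a log2 fold change of 1.61 (SE 0.312, unadjusted p = 0.00145) from 6.65, 4.18 and 5.73 CPM in NSD2fl/fl and 10.9, 16.9 and 22.7 CPM in NSD2∆IE. Htr2b, a serotonin receptor, had a log2 fold change of 1.19 (SE 0.251, unadjusted p = 0.00223). Of 16 genes of calcium entry, the calcium store and the membrane, 6 were higher. They were led by Cacna2d1, an auxiliary calcium channel subunit, with a log2 fold change of 1.28, Atp2b4, a calcium pump of the plasma membrane, with 1.27, and Trpc4, a cation channel opened downstream of muscarinic receptors, with 1.04. Atp2a2, the pump that phospholamban restrains, was at 299, 395 and 392 CPM in NSD2fl/fl and 301, 329.6 and 331 CPM in NSD2∆IE, a log2 fold change of -0.18 (SE 0.152, unadjusted p = 0.289). Its groups overlapped.

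Of 13 genes of the RhoA, phosphatase and cyclic GMP arms, 5 were higher, led by the cyclic GMP-dependent kinase Prkg1 with a log2 fold change of 1.08, its substrate gene Mrvi1 with 0.92 and the guanylyl cyclase subunit Gucy1b1 with 0.76. Rhoa, Rock1 and Rock2 were at log2 fold changes of -0.15, -0.09 and -0.17 and did not pass. Of the 13 genes, 6 lay higher in every NSD2∆IE library than in any control, beside 11.4% of all genes. The opposite order was found for 2, among them Rhoa, beside 7.28% of all genes. Of 23 filament and attachment genes, 11 were higher, led by Sgca with 1.81, the LIM protein gene Pdlim3 with 1.34 and the sarcoglycan gene Sgcd with 1.23. Sgca, alpha sarcoglycan, had only 25, 11 and 23 counts in NSD2fl/fl and 16, 80 and 134 in NSD2∆IE, and its groups overlapped. Of 11 transcription factors tested, 5 were higher, led by Hand1 with 1.43, Hand2 with 1.19 and Foxf2, a factor of gut mesenchyme, with 0.69. Gata6 was the 1 lower gene, at -0.35 (SE 0.134, unadjusted p = 0.0361). The coactivators of serum response factor Mrtfa and Mrtfb were at -0.15 and -0.21 and did not pass.

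Markers of other cells of the colon wall were examined beside the muscle genes, and neuronal and glial genes differed in the same direction. All 9 enteric neuron markers were higher past the threshold, among them Stmn2 with a log2 fold change of 1.01 and Uchl1 with 0.997, and their summed level was 66.5 to 126 CPM in NSD2fl/fl and 162 to 198 CPM in NSD2∆IE. Of 6 enteric glia markers, 5 were higher, led by Sox10 with 1.46, at sums of 15.1 to 23.0 CPM in NSD2fl/fl and 33.1 to 51.2 CPM in NSD2∆IE. Of 5 markers of interstitial cells of Cajal, the pacemaker cells, only Etv1 was higher, with 0.88. The others were not past the threshold, among them Kit at 0.14 and Ano1 at -0.38. The sums of the 5 were 921, 239 and 716 CPM in NSD2fl/fl and 810.4, 270.0 and 352 CPM in NSD2∆IE. These sums were lower in every library on the side with few posterior Hox counts than in any library on the other side. Of 3 markers of PDGFRA cells, Kcnn3 was higher with 0.85, at sums of 90.8 to 119 CPM in NSD2fl/fl and 99.1 to 115 CPM in NSD2∆IE. Kcnn3 is also expressed by neurons.

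Vessel and connective tissue markers varied by list. Of 7 pericyte markers, 3 were higher, led by Rgs5, a signalling regulator, at 176, 120.1 and 151 CPM in NSD2fl/fl and 222, 495 and 512 CPM in NSD2∆IE, a log2 fold change of 1.46. The sums were 224 to 305 CPM in NSD2fl/fl and 353 to 653 CPM in NSD2∆IE. None of 6 endothelial markers passed, at sums of 171 to 206 CPM in NSD2fl/fl and 184 to 205 CPM in NSD2∆IE and with Pecam1 at 0.07. Of 6 fibroblast markers, 3 were higher, namely Lum with 1.08, Dpt with 0.74 and Dcn with 0.43, while Col1a1 was at -0.11, and the sums were 1192 to 1491 CPM in NSD2fl/fl and 1298 to 1510.0 CPM in NSD2∆IE. Of 7 adipocyte markers, 6 were tested and 3 were higher, namely Retn with 4.06, Cfd with 3.49 and Fabp4 with 1.11, at sums of 15.1 to 30.04 CPM in NSD2fl/fl and 38.3 to 88.3 CPM in NSD2∆IE. Adipoq, Plin1, Lep and Retn were at 0 counts in NSD2fl/fl replicate 2.

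Of 8 epithelial markers, 0 were higher and 1 was lower, Elf3 with -0.60. Epcam, Cdh1 and Elf3, 3 of the 8, lay lower in every NSD2∆IE library than in any control, beside 7.28% of all genes. The opposite order was found for 0 of the 8, beside 11.4% of all genes. The sum of the 8 was 7922, 14547 and 9765 CPM in NSD2fl/fl and 8781, 8746 and 8177 CPM in NSD2∆IE. It was highest in NSD2fl/fl replicate 2, where the muscle genes were lowest. Mesothelial markers, 3 of 5 tested, had 0 past the threshold, at sums of 2.05 to 10.3 CPM in NSD2fl/fl and 3.204 to 3.30 CPM in NSD2∆IE. Of 9 skeletal muscle markers, 8 were in the files and 6 were tested, and Ckm, muscle creatine kinase, was the 1 higher gene, with 266, 147 and 226 counts in NSD2fl/fl and 457, 1277 and 1474 in NSD2∆IE and a log2 fold change of 2.19. Myh1, a skeletal myosin, had 0 to 3 counts in every library and Acta1 was at -0.33, and the sums were 11.1 to 18.9 CPM in NSD2fl/fl and 20.5 to 44.4 CPM in NSD2∆IE. The 5 posterior Hox genes, 4 of them tested, had 0 past the threshold, with Hoxb13 at 14052, 25 and 12125 counts in NSD2fl/fl and 12288, 197 and 1086 in NSD2∆IE. The part of the other cell types of the wall in the differences of the muscle genes was not tested.

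**Figure D5:**
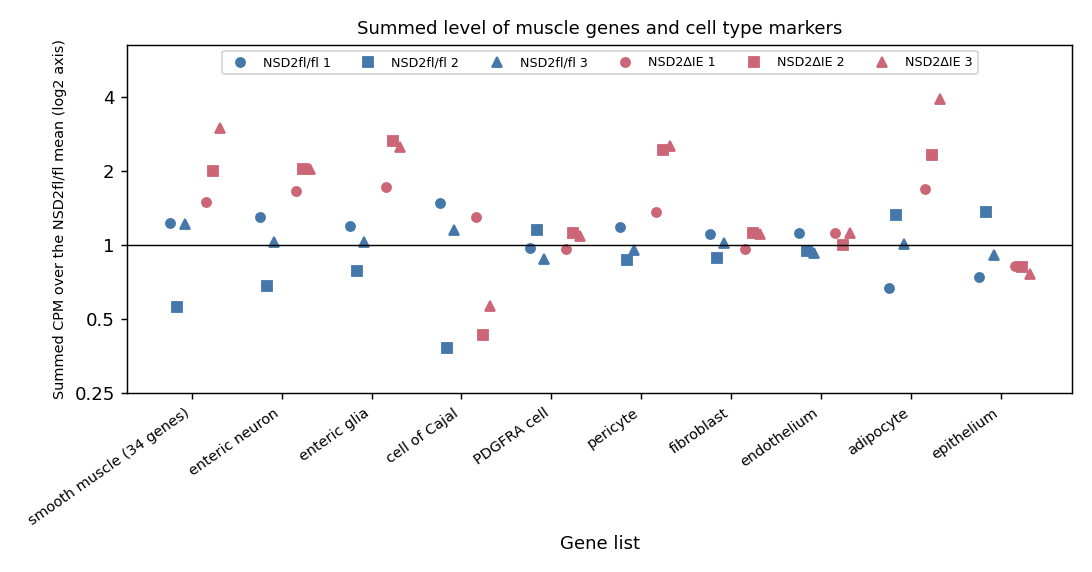
Summed CPM of the 34 smooth muscle genes and of marker lists of other cells, each divided by its NSD2fl/fl mean, on a log2 axis with one point per library. Muscle, neuron, glia and adipocyte sums are above every control in all 3 NSD2∆IE libraries, as are those of pericytes, while the endothelial sums lie close to 1 throughout and the epithelial sums are highest in NSD2fl/fl replicate 2.

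Across the 6 libraries, the genes outside these lists whose log2 CPM followed the mean of the 34 most closely were Grb14, Faxc, Kcnd3, Stbd1, Trnp1, Rgs1, Cfl2, Popdc2, Lims2 and Matn2, out of 13102 genes screened. Their Pearson correlations ran from 0.994 to 0.997, a description over 6 libraries that share depth and the split described above. Popdc2, a cyclic AMP-binding membrane protein of muscle, had a log2 fold change of 1.64, and Kcnd3, a potassium channel, had 1.08. Among the 34 themselves, the correlation with the mean was highest for Acta2, at 0.999, and lowest for Chrm3 at 0.581, Pde5a at 0.428 and Ldb3 at 0.181, where each gene is itself part of the mean.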

How the data were processed

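The authors deposited read counts per gene symbol and FPKM values per gene symbol for each of the 6 libraries. The submitters' processing notes name fastp, HISAT2, HTSeq, R 3.2.0 and mm10, and use of strand is not given in the sources used here. For the 11818 genes with at least 100 counts in every library, deposited FPKM and counts implied 1 gene length, shared by all libraries to within 0.000647 bases. The libraries held 38041832 to 38604680 counts, and intervals for counting error were not used, since the spread between libraries, a biological coefficient of variation of 0.311, was larger. No 2 libraries agreed within sampling noise.

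Counts were tested with edgeR 4.0.16 in R 4.3.3 (filterByExpr, TMM, glmQLFit and glmQLFTest, two-sided, no covariates), with Benjamini-Hochberg adjustment over 16347 genes, and the standard error was the log2 fold change over the square root of F. DESeq2 1.42.0 and limma 3.58.1 were alternatives. CPM was scaled by TMM factors. The fit was tried on simulated counts with 100 genes changed 4-fold and 100 changed 2-fold. At an adjusted p under 0.05 it recovered 78 and 19 of them, with 9 false calls. The simulated libraries were drawn without the split of the first principal component. Members and lists were chosen with earlier results of these data known. All 34 members are named. Of companion and marker genes, at most the 3 largest changes per direction past the threshold are named, with defining markers named for their level. Atp2a2, Rhoa, Rock1, Rock2, Mrtfa, Mrtfb, Popdc2 and Kcnd3 were picked out for their known roles after their values were seen. For 1 neuron marker no value of its own is reported here, and the list's count and sum include it. Other alternatives were normalization, the count filter, the pseudocount, left-out libraries, a replicate block and the side of the first principal component.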

Additional observations from a re-analysis of the deposited data

How the results depend on the processing

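Over 16 alternatives the 34 genes gave 0 calls lower past the study's threshold. The number higher, 25, was 25 to 29 under the alternatives that kept all libraries and 6 to 24 when a library was left out, with 15 without NSD2∆IE replicate 2 and 6 without NSD2∆IE replicate 3. Over all genes the share higher was 5.96% to 11.5% with all libraries kept and 4.06% to 10.3% with a library left out. DESeq2 gave 8 genes an adjusted p under 0.05, and the other 15 alternatives gave 0. The median log2 fold change, 1.03, was 0.73 to 1.23 when a library was left out. Library totals alone moved the median of all genes from -0.04 to 0.09. Companion genes higher, 29, were 18 to 30 when a library was left out, and the 1 lower companion became 0 with upper-quartile factors, library totals, log2(FPKM + 1), log2(FPKM + 0.1) or the principal component as a covariate, and 0 to 2 when a library was left out. The sign of Ldb3 turned to -0.070 without NSD2fl/fl replicate 1 and -0.0065 without NSD2∆IE replicate 2, and its log2 fold change reached 0.31 among left-out libraries. That of Chrm3 turned to -0.077 without NSD2∆IE replicate 3 and reached 0.53. The log2 ratio Actg2 to Acta2 turned to -0.0044 without NSD2∆IE replicate 3 (highest 0.38), that of Chrm2 to Chrm3 to -0.13 without NSD2fl/fl replicate 2 (highest 1.41), and that of Myocd to Srf to -0.011 with a pseudocount of 1. The cause was not tested. With the replicate number as a block, 27 of the 34 genes, 35 companions and 8.94% of all genes were higher and the median was 1.09. Deviations of same-numbered libraries correlated at 0.50, 0.64 and -0.17. The 2 libraries numbered 1 share a side of the first principal component, as do those numbered 2, and those numbered 3 do not. These values therefore cannot settle whether libraries were paired by number. The spread between 3 libraries, not depth, limits these values.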
